A study of Drosophila melanogaster with 2 samples.

Results

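The genes described here encode the factors that start protein synthesis and the enzymes that load tRNAs. What was measured is where peaks from an immunoprecipitation of embryos with an eGFP-tagged Hox protein, Scr, lay near these genes. They were the protein-coding genes of the Ensembl annotation of dm6 whose symbol begins with eIF, or ends in a three-letter amino acid name followed by RS or RS-m. There were 79 of them among 13968 protein-coding genes on the assembled chromosome arms, of which 44 were eIF genes and 35 were aminoacyl-tRNA synthetase genes. The 20 synthetase genes with no -m in the symbol are called cytosolic here and the 15 with it mitochondrial, from the symbol alone. For each gene the question was whether a peak summit, the base at which a peak is highest, lay within 500 bp of 1 of its own transcription start sites (TSSs). The rule itself uses symbols and no measured value, although it was proposed with earlier results of these data known.

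Chromatin immunoprecipitation with sequencing had been carried out on whole Drosophila melanogaster embryos, 0 to 24 h old, of a transgenic strain, Scr-GFP, that produces Scr joined to eGFP. There was 1 group of 2 biological replicates, each an immunoprecipitate of Scr-eGFP embryos of that strain, with no second genotype, treatment or stage. The antibody was directed against GFP according to the description, whereas the antibody field of the labels reads Scr, the labels do not state what drives the fusion gene, and no untagged embryos were analysed here. The lists of peaks carry no RNA values, so the tissue label could not be set against marker genes, and whole embryos pool the few segments that make Scr with all the others. The lists' own values are called the signal, a number that the authors' software gave each peak and of unstated scale. It is compared between genes within a list, and the lists of the replicates are set side by side only as a description. The main list had been made by the authors from both replicates together and held 5720 peaks on the arms, and the lists of replicate 1 and replicate 2 held 4462 and 4376. Longer ranked lists, with 77377 entries for both replicates together, held weaker entries as well. Sequencing depth is unknown from these files.

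Initiation factors gather the initiator tRNA, the small ribosomal subunit and the capped end of the messenger RNA, and hand the start codon over to the large subunit. In the cytosol and in the mitochondrion, aminoacyl-tRNA synthetases join each amino acid to its tRNA. Both are needed in every cell, and promoters of such housekeeping genes in Drosophila often carry the site of DREF, a factor known for genes of DNA replication and growth, or that of M1BP, which binds a motif of constitutive promoters. Scr gives the labial segment and the first segment of the thorax their identity, and is known for control of segment-specific genes.

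The sequences under the summits are shown first, because a site found in some of them is taken up again below. The 5 windows reach 50 bases to each side of the main-list summits of the strongest genes for which such a window could be shown, 3 with a DREF site and 2 without. Each is written 5′ to 3′ on the strand of its gene, here the minus strand, from the RefSeq genome of release 6 (dm6), with TATCGATA, the DREF site, in capitals. The windows lie at chr3R:4714170-4714270 for eIF3f1, chr3R:9266916-9267016 for TrpRS, chr3R:15263443-15263543 for eIF2gamma, chr3R:23958396-23958496 for GluProRS and chr3R:25265743-25265843 for GlnRS. They cover the promoter and, at eIF3f1 and eIF2gamma, the first 13 and 16 bases of an annotated 5′ leader.
eIF3f1: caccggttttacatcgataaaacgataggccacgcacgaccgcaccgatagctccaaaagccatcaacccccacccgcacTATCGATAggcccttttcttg
TrpRS: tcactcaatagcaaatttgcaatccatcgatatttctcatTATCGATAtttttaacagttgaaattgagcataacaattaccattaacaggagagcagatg
eIF2gamma: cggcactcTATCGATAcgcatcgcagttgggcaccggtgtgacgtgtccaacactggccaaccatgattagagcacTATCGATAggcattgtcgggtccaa
GluProRS: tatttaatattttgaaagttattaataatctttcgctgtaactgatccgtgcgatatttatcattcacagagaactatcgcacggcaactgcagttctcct
GlnRS: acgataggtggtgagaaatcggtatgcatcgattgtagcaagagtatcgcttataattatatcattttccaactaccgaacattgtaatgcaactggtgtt
The eIF2gamma window holds the site at 2 places, 6 and 74 bp upstream of the TSS, and the summit lies between them. The site of eIF3f1 is centred 4 bp upstream of the TSS and that of TrpRS 68 bp upstream. GluProRS and GlnRS hold neither TATCGATA nor the site of M1BP, GGTCACAC, although the short run CGATA of the DREF site occurs in both windows.

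Shorter stretches of 30 bases, with the site in the same relative place, show the DREF site at 5 further genes of both kinds. They run on the strand of each gene and lie at chr3R:4433915-4433944 (minus strand), chr3R:29027214-29027243 (minus), chrX:16446988-16447017 (minus), chr2L:8381765-8381794 (minus) and chr3L:22288612-22288641 (plus).
eIF3a: tcggcctgaacTATCGATAacgcagccagg
eIF4E6: atcacgcgataTATCGATAtgtttcgattg
eIF2alpha: acgcaattaaaTATCGATAacaccactgtc
AlaRS: atctctaaatcTATCGATAtctcatccagt
IleRS: tcggaacctacTATCGATAtcgcgaaccca
The M1BP site stood in a window at 4 genes, and 3 of them are shown in the same way, with GGTCACAC or its reverse complement GTGTGACC in capitals. They lie at chr3R:24252714-24252743 (minus), chr2L:16827072-16827101 (plus) and chr3L:21824894-21824923 (plus).
beta-PheRS: tatggaaaataGTGTGACCctcctgcataa
AspRS-m: atgcggcatatGGTCACACttcatcgctgc
eIF2A: acggcaaccgtGTGTGACCaattcaagcac
A match to these letters is a description of the DNA and not a measure of DREF or M1BP on it. eIF2A was the 1 gene with a site of each kind in its window.

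In the main list 47 of the 79 genes (59.5%) had a summit at their own TSS, against 36.2% of all protein-coding genes (5062 of 13968). The eIF genes had one at 27 of 44 (61.4%, Wilson 95% interval 46.6 to 74.3) and the synthetase genes at 20 of 35 (57.1%, 40.9 to 72.0). These intervals cover counting error alone, and no test was made between gene groups, since genes are not replicates. Cytosolic and mitochondrial synthetases differed in their counts, with 16 of 20 (80.0%, 58.4 to 91.9) and 4 of 15 (26.7%, 10.9 to 52.0). Summits of the 47 genes had a median signal of 340 (quartiles 125 and 636), and those of all 5062 genes 233 (109 and 534). Above the upper quartile of all genes with a summit, 534, stood 13 of the 47, or 27.7%, and below the lower quartile, 109, stood 10, or 21.3%. These genes therefore had a summit more often than protein-coding genes did as a whole, while the signals of those that had one covered the usual range.

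**Figure D1:**
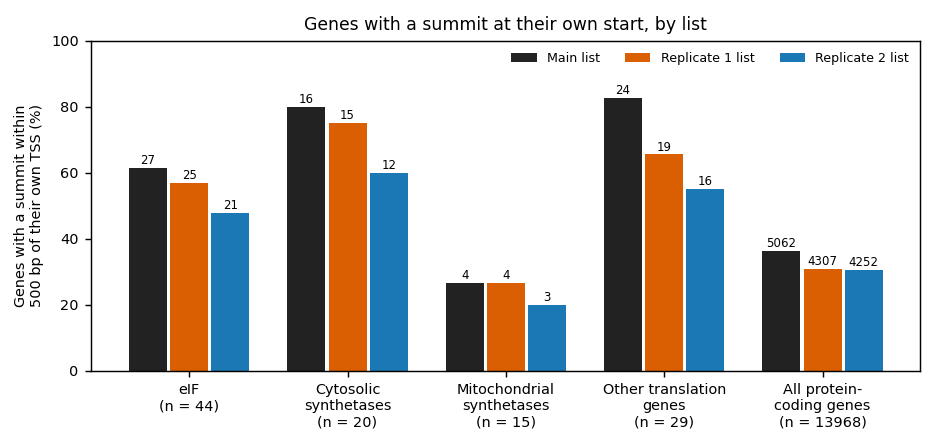
Bars give the percentage of genes with a summit within 500 bp of their own TSS (vertical axis, from 0 to 100%) in the main list and in the lists of replicate 1 and replicate 2, for eIF genes, cytosolic and mitochondrial synthetase genes, other translation genes and all protein-coding genes, with the number of genes above each bar. Cytosolic synthetases stood at 16 of 20 in the main list and mitochondrial ones at 4 of 15, against 5062 of all 13968 genes.

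Each replicate's own list gave a similar picture with fewer genes. Replicate 1 had a summit at 44 of the 79 genes, against 30.8% of all genes, and replicate 2 at 36, against 30.4%. The 36 genes of replicate 2 were all among those of replicate 1, which makes 36 of 79 (45.6%) in both lists, against 26.4% of all genes. In those lists 25 and 21 eIF genes, 15 and 12 cytosolic synthetase genes, and 4 and 3 mitochondrial ones had a summit, in replicate 1 and replicate 2. No eIF or synthetase gene (0 of 79, upper Wilson limit 4.64%) had a summit in the list of replicate 2 alone, against 558 of all genes (4.0%). In the list of replicate 1 alone 8 had one (10.1%), against 613 of all genes (4.39%). The conservative list of the authors gave 47 genes as well, against 36.0% of all genes, with 25 eIF and 22 synthetase genes. It added AsnRS-m and ValRS-m, the enzymes for asparagine and valine in mitochondria, and left out eIF4G1 and eIF2Bdelta. No thresholded list held a summit at 28 of the 79 genes (35.4%), against 60.2% of all genes.

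The strongest of all was eIF3c, which encodes a core subunit of eIF3, the many-part scaffold on the small ribosomal subunit. The summit at eIF3c (FBgn0034258) had a signal of 2140 in the main list, where it ranked 12th of 5720, with 1204 in replicate 1 and 941 in replicate 2. That summit lay at 2R 17665646, 32 bp upstream of the TSS, and no other protein-coding gene started within 500 bp of it. eIF3a (FBgn0037249), the largest subunit, followed with 1252 in the main list, and 694 and 561 in replicates 1 and 2, 55 bp upstream of its TSS but nearer, at 15 bp, to that of the divergent gene CG1074. eIF3f1 (FBgn0037270) had 1233, 657 and 585 in the same 3 lists and no neighbour within 500 bp. All 3 stood above the upper quartile of all genes in the main list.

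Of the 16 eIF3 genes 9 had a summit, and the 6 weaker ones covered a wide range. eIF3l had 454 in the main list, with 282 in replicate 1 and 151 in replicate 2, the largest ratio between replicates among the 36 genes with a summit in both lists. eIF3b had 340 and eIF3j 187, and the signals of eIF3h, eIF3e and eIF3d1 were 152, 138 and 85.0. The 7 eIF3 genes without a main-list summit were eIF3d2, eIF3f2, eIF3g1, eIF3g2, eIF3i, eIF3k and eIF3m. Of the 3 subunits with a numbered pair of gene copies, eIF3d and eIF3f had a summit at copy 1 (85.0 and 1233) and none at copy 2, and eIF3g had none at either. The copies eIF3d2, eIF3f2 and eIF3g2 had no entry even in the main ranked list, whereas eIF3g1 had a weak one (35.7).

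eIF1 and eIF1A, small factors that hold the scanning ribosome open until it meets a start codon, both had a summit. Of all genes 36.2% had one, and 2 genes are too few for a share. eIF1A (FBgn0026250) had 841 in the main list, and 457 and 374 in replicates 1 and 2, and eIF1 had 647, 349 and 280. Each of their starts faced a divergent neighbour, Vps39 at eIF1A and the ribosomal protein gene RpL28 at eIF1.

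Among the subunits of eIF2, the trimer that carries the initiator tRNA, the gamma subunit that binds GTP was the strongest. The summit at eIF2gamma (FBgn0263740) had 1049 in the main list, and 531 and 513 in replicates 1 and 2. Its start is also that of Su(var)3-9, a histone methyltransferase gene, and Set starts nearby on the other strand, so this peak cannot be given to 1 gene. eIF2alpha, the subunit whose phosphorylation slows initiation, had 319, 159 and 166, with its summit 6 bp upstream of the TSS and no other start near. eIF2beta had no summit in the thresholded lists and an entry of 65.3 in the main ranked list. eIF2B, the factor that recharges eIF2 with GTP, had a summit at 4 of its 5 genes, and 3 of the 4 were weak. eIF2Balpha had 290, whereas eIF2Bgamma, eIF2Bbeta and eIF2Bdelta had 84.4, 79.6 and 78.3, and eIF2Bepsilon, the catalytic subunit, had none, with a ranked entry of 67.4. The gamma, beta and delta genes of eIF2B were among the 10 genes below the lower quartile of all genes. Both factors that can bring tRNA to the ribosome apart from the trimer had a summit, eIF2A with 321 and eIF2D with 77.5, the lowest value of the 47.

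The cap complex of eIF4 had a summit at 5 of 13 genes in the main list (38.5%), against 36.2% of all genes. This was the lowest share of the eIF groups there, whereas in the list of replicate 2 it was 4 of 13 and eIF2B lower with 1 of 5. With ranked entries at or above the main list's lowest score added, eIF4A and eIF4EHP joined and it was 7 of 13 (53.85%). eIF4E6, a paralogue of the cap-binding protein, had 1057 in the main list, and 545 and 517 in replicates 1 and 2. That summit lay 54 bp upstream of the TSS of eIF4E6 (FBgn0039622) and 8 bp from the start of CG1951 on the opposite strand. The main cap-binding gene eIF4E1 had 375, 208 and 148, while eIF4E3, eIF4E4, eIF4E5 and eIF4E7 had no entry in the main ranked list. The scaffold genes eIF4G1 and eIF4G2 had 344 and 364. eIF4H1, whose product assists the helicase, had 235, and its paralogue eIF4H2 a ranked entry of 8.04, the weakest such entry among the 79 genes. eIF4B, another helicase cofactor, had no entry.

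eIF4G1 was the 1 gene of the 47 with a summit in the main list and no entry, however weak, in the ranked list of replicate 2. Its signal was 344 in the main list and 191 in replicate 1, the conservative list lacked it, and it is the 1 gene of the 79 on chromosome 4. What sets the replicates apart there was not tested. The other genes with a summit in the list of replicate 1 alone were weak. Their signals in replicate 1 were 68.1 at CysRS, 67.9 at LysRS, 57.1 at eIF2Bdelta, 47.8 at eIF2D, 47.1 at PheRS-m, 42.3 at ValRS and 30.6 at eIF3m. All 7 had an entry in the ranked list of replicate 2, the strongest being 63.8 at PheRS-m. Of these 8 genes eIF3m and ValRS had no main-list summit. A further 5 (6.33%, against 3.49% of all genes) had a summit in the main list and in neither replicate's own list. They were eIF5B (90.7), TyrRS (85.6), eIF2Bgamma (84.4), LeuRS (84.0) and eIF2Bbeta (79.6).

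The late factors eIF5, eIF5B and eIF6 all had a summit, against 36.2% of all genes. eIF6, which keeps the large subunit apart until it is needed, had 445 in the main list, with 223 in replicate 1 and 229 in replicate 2, at 17 bp upstream of its TSS. The peak at eIF5, the GTPase activator of eIF2, had 358, 160 and 190, but its summit lay 398 bp upstream, 96 bp from the nearest other start, and both exd and CG46312 start within 500 bp of it. eIF5B, which joins the subunits, had 90.7. eIF5 and GlyRS (408 bp upstream, signal 120) were the 2 genes nearest the edge of the 500 bp window on the inside. Beyond that edge, within 1000 bp, lay a summit at 610 bp from eIF5 (71.2) and one at 715 bp from eIF2Bbeta (66.7). Others lay at 861 bp from eIF6 (380) and at 994 bp from CysRS (402). These farther summits are named by distance alone, and each of these genes already had a nearer one.

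**Figure D2:**
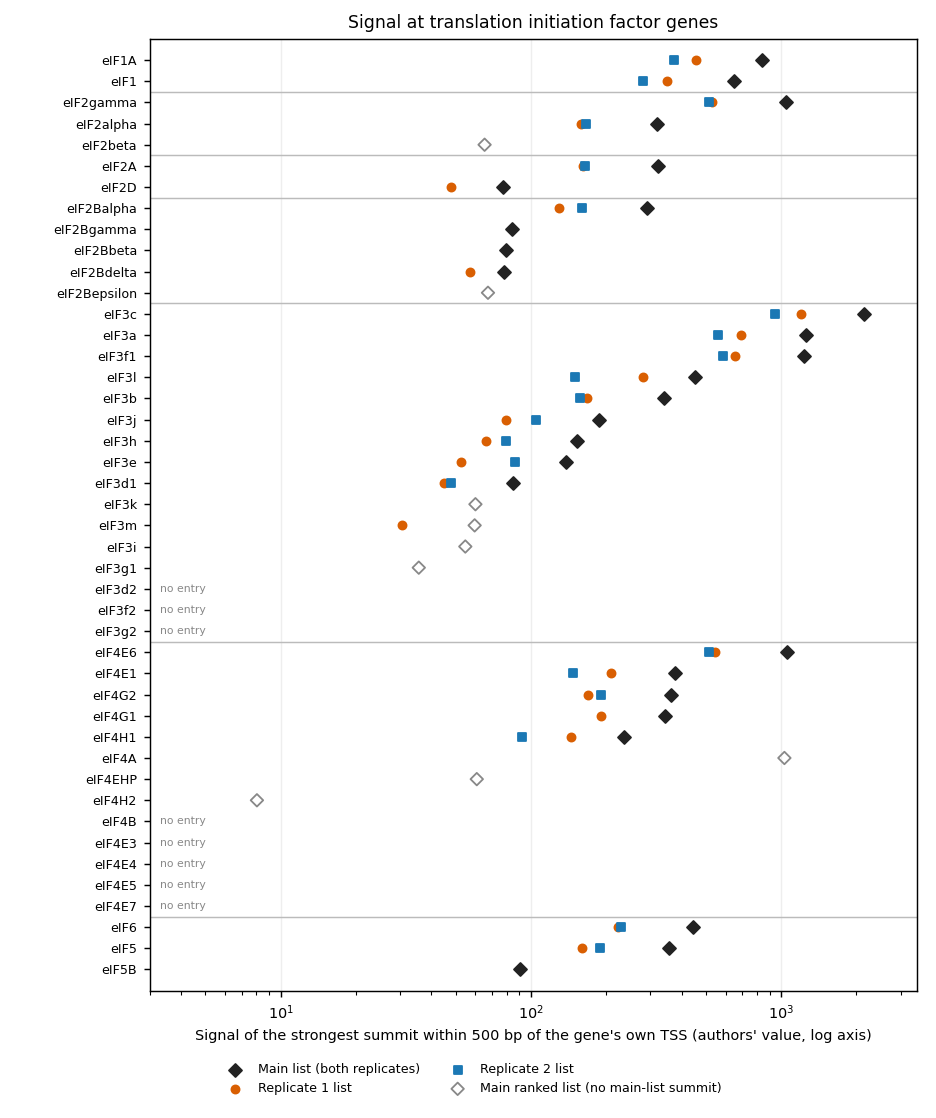
Signal of the strongest summit within 500 bp of the own TSS (horizontal log axis, the authors' value) for the 44 eIF genes, grouped by role with lines between groups. Filled symbols are the main list and the lists of replicates 1 and 2, open diamonds the main ranked list where the main list has no summit, and 8 genes have no entry. The values fall from 2140 at eIF3c to 77.5 at eIF2D among filled diamonds, and the open diamond of eIF4A stands at 1031, far from the other open ones.

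Among the synthetases GluProRS, which carries the glutamate and the proline enzyme in 1 protein, was the strongest. The summit at GluProRS (FBgn0005674) had 1193 in the main list, and 677 and 488 in replicates 1 and 2, 55 bp upstream of the TSS. TrpRS (FBgn0010803) had 1100, 526 and 571, and GlnRS (FBgn0027090) 923, 503 and 422. Both of these lay closer to a divergent gene, Vps16A at TrpRS and RIOK2 at GlnRS, than to the synthetase itself. The next were beta-PheRS (FBgn0039175) with 796, 421 and 372, and ArgRS (FBgn0027093) with 647, 375 and 273. The sixth, AspRS-m (FBgn0051739), was the 1 mitochondrial enzyme among the strongest 6, with 624, 369 and 246. Replicate 1 was higher than replicate 2 at all of these except TrpRS.

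The cytosolic set went on through MetRS (500), AsnRS (482), AspRS (396), AlaRS (353), IleRS (328) and SerRS (257) to GlyRS (120), LysRS (111), CysRS (105), TyrRS (85.6) and LeuRS (84.0). HisRS, ThrRS, ValRS and alpha-PheRS had no main-list summit. The enzyme for phenylalanine in the cytosol is built of an alpha and a beta chain, and the genes of its 2 chains differed, with 796 in the main list at beta-PheRS and a ranked entry of 71.2 at alpha-PheRS. The mitochondrial set had 4 summits, at AspRS-m (624), LeuRS-m (138), ArgRS-m (130) and PheRS-m (106). LeuRS-m had 71.3 in replicate 1 and 62.6 in replicate 2, and ArgRS-m had 62.7 and 71.3, so the 2 swapped order between replicates. The 11 mitochondrial enzymes without a main-list summit were those for alanine, asparagine, cysteine, glutamate, isoleucine, methionine, proline, serine, tryptophan, tyrosine and valine.

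For 12 amino acids the annotation has a cytosolic gene and a mitochondrial gene under matching symbols. Both forms had a main-list summit for arginine, aspartate and leucine. The cytosolic gene alone had one for 8, namely alanine, asparagine, cysteine, isoleucine, methionine, serine, tryptophan and tyrosine. The mitochondrial gene alone had one for 0 of the 12, and neither had one for valine. Within the pairs with both, the signal was 647 at ArgRS and 130 at ArgRS-m, and 396 at AspRS and 624 at AspRS-m. It was 84.0 at LeuRS and 138 at LeuRS-m, so the mitochondrial gene was the stronger for aspartate and leucine. These pairings hold for the main list. In the conservative list ValRS-m had a summit (68.6) and ValRS none, and both asparagine genes had one. At ArgRS, AsnRS, LeuRS, SerRS and TrpRS another gene's start was nearer to the summit. When only the nearest start counted, arginine and leucine kept a summit at the mitochondrial gene alone, and asparagine, serine and tryptophan at neither gene. Of all protein-coding genes 36.2% had a main-list summit, and 28.2% when only the nearest start counted.

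**Figure D3:**
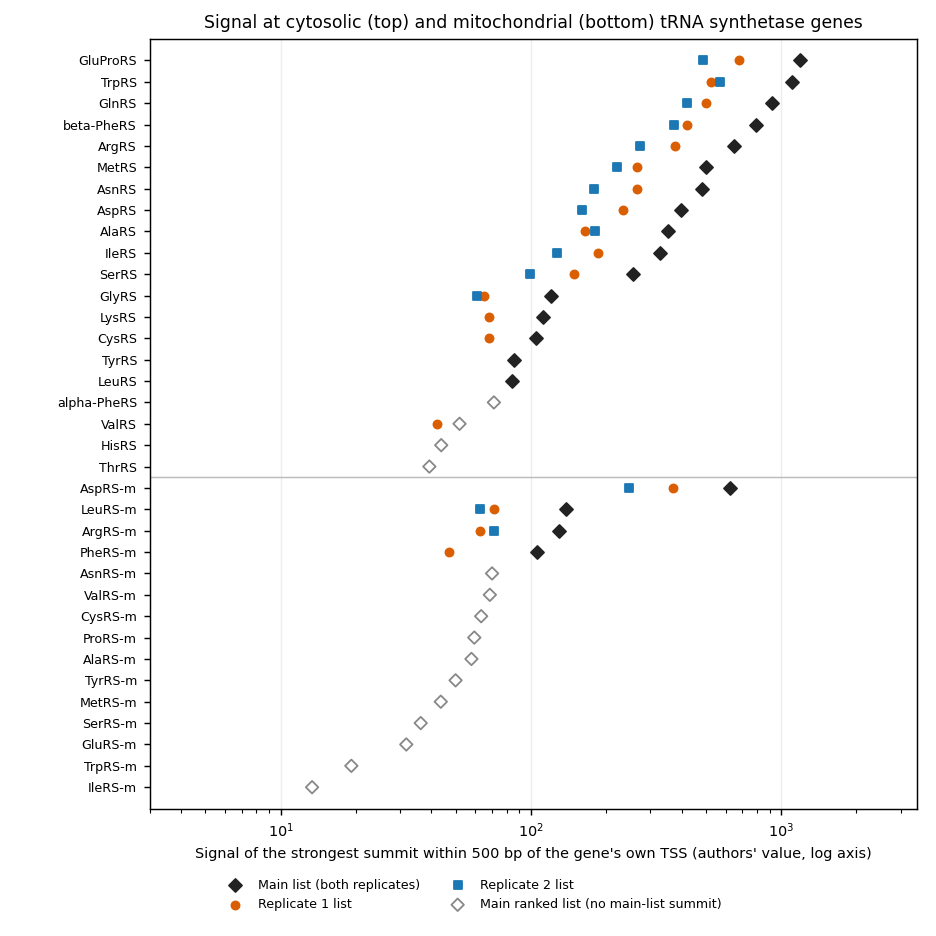
Signal of the strongest summit within 500 bp of the own TSS (horizontal log axis, the authors' value) for 20 cytosolic synthetase genes above the line and 15 mitochondrial ones below it. Filled symbols are the main list and the lists of replicates 1 and 2, open diamonds the main ranked list where the main list has no summit. The cytosolic genes run from 1193 at GluProRS down to 84.0 at LeuRS before the open diamonds begin, and among the mitochondrial genes AspRS-m (624) stands apart from LeuRS-m (138).

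The absence of eIF4A from the main list needs its own account. eIF4A (FBgn0001942) encodes the helicase that unwinds the messenger RNA ahead of the ribosome. In the main ranked list it had an entry with a signal of 1031 and the highest score, 1000, with its summit at 2L 5981644, 120 bp upstream of a TSS. The ranked lists of replicate 1 and replicate 2 had entries of 620 and 460 there, both at a score of 1000. No thresholded list held a peak at this gene, although the lowest score in the main list was 830, and 252 main-list peaks had a higher signal. It was the 9th strongest of 160 such entries on the arms, 2.72% of the 5880 entries of the main ranked list at or above that score. Within 10 kb of it lay 6 of these 160 entries, itself included, and 0 peaks of the main list. Why the thresholded lists lack them was not tested. eIF4EHP, which encodes a cap-binding repressor of translation, had 1 further case, an entry of 60.8 at a score of 930. The main list held peaks of 86.5 and 55.7 far inside that gene, 43055 and 16268 bp from its TSS. With such entries counted the 47 genes became 49, and eIF genes 29 of 44, while all protein-coding genes became 36.9%.

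Beyond eIF4A, the genes without a main-list summit were weak in the ranked list and not all absent from it. Of these 32 genes 24 had an entry in the main ranked list, with signals of 8.04 to 1031 and a median of 56.3. After eIF4A the next was alpha-PheRS at 71.2, and the lowest signal of the 47 genes with a main-list summit was 77.5. Counting any entry, 71 of the 79 genes (89.9%) had one, against 69.2% of all genes. All 35 synthetases were among them and 36 of the 44 eIF genes. The 8 genes with no entry were eIF4B and 7 paralogues, eIF3d2, eIF3f2, eIF3g2, eIF4E3, eIF4E4, eIF4E5 and eIF4E7. These long lists hold so many entries that having one says little of a gene. Above the median signal of the main list, 34 of the 79 genes had a summit, against 24.0% of all genes, 21 of them eIF genes and 13 synthetases.

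Many of these starts are shared with a neighbour, and there the peak cannot be assigned to 1 gene. Of the 47 genes 28 (59.6%) had a TSS of another protein-coding gene within 500 bp of the summit, against 55.8% of the 5062. The share was 13 of 27 (48.1%) for eIF genes and 15 of 20 (75%) for synthetases, and 13 of 16 (81.3%) for the cytosolic ones. A neighbour lay on the opposite strand at 27 of the 28 genes, against 2704 of 2823 over all genes with a shared summit. The gene's own TSS was the nearest to its strongest summit at 34 of 47 (72.3%), against 72.8% of the 5062. At 13 genes, 6 eIF and 7 cytosolic synthetase genes, another gene's start was nearer. When a gene counted only if one of its summits was nearest to it, 22 eIF genes and 13 synthetases remained, 9 of them cytosolic and 4 mitochondrial, together 35 of 79 (44.3%), against 28.2% of all genes. Under this rule cytosolic and mitochondrial synthetases had shares of 45.0% (Wilson interval 25.8 to 65.8) and 26.7% (10.9 to 52.0), and the part of shared starts in their difference was not tested. Genes with a summit near no other start had a median signal of 253 among eIF genes (14) and 353 among synthetases (5), against 164 over all such genes (2239).

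Summits lay close to the start. The median position was 38 bp upstream for the 47 genes and 62 bp upstream for the 5062. Within 100 bp of the TSS lay 35 of the 47 (74.5%), against 59.5%, and 40 of 47 (85.1%) were upstream, against 81.1%. The 7 summits downstream were all weak, from 77.5 at eIF2D (164 bp) to 138 at eIF3e (157 bp). The 10 strongest genes had their summit between 35 and 108 bp upstream, except eIF3c at 32 bp and beta-PheRS at 15 bp.

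**Figure D4:**
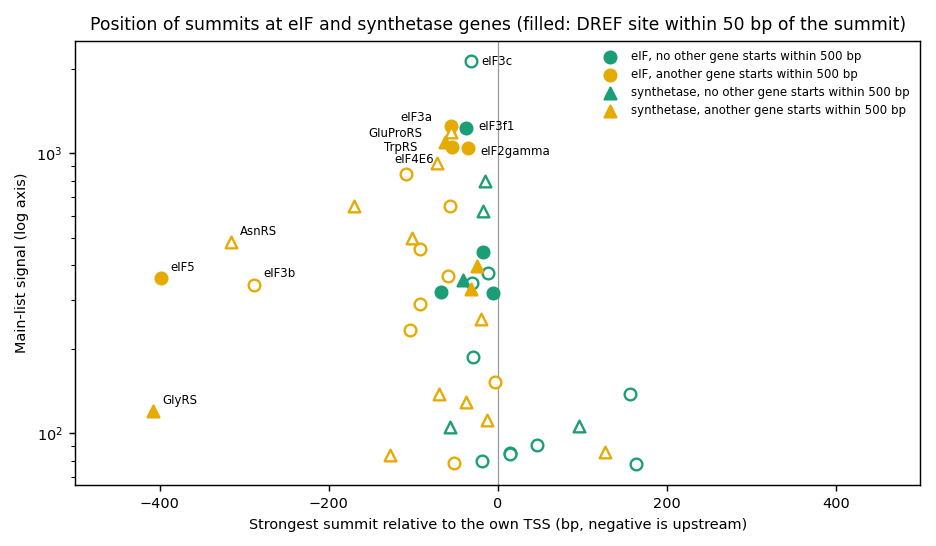
Each symbol is 1 of the 47 genes with a main-list summit, placed by the summit's distance from the own TSS (horizontal, bp, negative upstream) and its signal (vertical log axis). Circles are eIF and triangles synthetase genes, yellow where another gene starts within 500 bp and green where none does, filled where TATCGATA lies within 50 bp of the summit. The 7 symbols right of the line are all below a signal of 140 and none is filled.

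The DREF site, TATCGATA, stood within 50 bp of the summit at 13 of the 47 genes (27.7%, Wilson 95% interval 16.9 to 41.8), against 884 of the 5062 genes with a summit (17.5%) and 12.8% of all main-list summits. Both strands were searched, but the site is its own reverse complement and counts once. It was found at 8 of 27 eIF genes (29.6%) and 5 of 20 synthetase genes (25%). All 14 copies, in 13 genes, were centred upstream of the TSS, from 4 to 414 bp away with a median of 36 bp, and at a median of 14 bp from the summit. Among the 10 strongest genes 5 had it, namely eIF3a, eIF3f1, TrpRS, eIF4E6 and eIF2gamma. The median signal was 396 at the 13 genes with the site and 246 at the 34 without it, and over all genes it was 435 at 884 and 187 at 4178. The ranges overlapped, with 120 to 1252 at the 13 genes and 77.5 to 2140 at the 34, and eIF3c, the strongest of the 47, had none. Of the 23 genes above the median of the 47, 9 had the site, and of the 24 at or below it 4 had it. Shares over all genes of like signal were not computed.

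In the 300 bases from 250 upstream to 50 downstream of a gene's first TSS, TATCGATA occurred at 15 of the 47 genes with a summit (31.9%) and at 2 of the 32 without (6.25%). The same stretch held it at 22.6% of all genes with a summit and 9.36% of all protein-coding genes. The shorter run CGATA stood within 50 bp of the summit at 29 of 47 (61.7%), against 54.2%, and so was common everywhere. The M1BP site, GGTCACAC, searched on both strands, lay within 50 bp of the summit at 4 of 47 (8.51%), against 5.12%, at beta-PheRS, AspRS-m, eIF2A and eIF5B. GAGAGAG, bound by the GAGA factor, occurred at 0 of 47 (upper Wilson limit 7.56%), against 1.84%. TATAAA, the TATA box, occurred at 5 of 47 (10.6%), against 13.9%, and CAGCTG, an E-box, at 2 of 47 (4.26%), against 9.09%. For CAGCTG the order turned with the window. Within 100 bp of the summit it stood at 12 of 47 (25.5%), against 17.9%, and in the 300 bases at the first TSS at 14 of 47 (29.8%), against 23.7%. GGTCACAC in those 300 bases stood at 5 of the 47 genes with a summit (10.6%) and 6 of the 32 without (18.8%), against 13.6% of all genes with a summit and 7.69% of all protein-coding genes, so its order turned as well.

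Initiator letters at the TSS were looked for on the gene's strand within 5 bp of an annotated TSS. TCAGT, the common initiator, was there at 1 of the 47 genes with a summit (2.13%) and 0 of the 32 without, against 11.4% of all genes with a summit and 14.0% of all protein-coding genes. CTTTT, the core of the TCT initiator known from ribosomal protein genes, was there at 2 of 47 (4.26%) and 3 of 32 (9.38%), against 3.66% of all genes with a summit and 2.87% of all genes. The annotation's start positions set these counts, and a start misplaced by a few bases would miss its letters.

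The replicates ranked the 36 genes with a summit in both lists alike. The median of the log2 ratio of replicate 1 to replicate 2 was 0.17 (SD 0.35, 36 genes), against 0.16 (SD 0.37) for all 3694 such genes. It was lowest at eIF3e (-0.72), with 52.4 in replicate 1 and 86.1 in replicate 2, and highest at eIF3l (0.90). Replicate 1 was the higher at 23 of the 36 genes and replicate 2 at 13, against 2501 and 1193 of the 3694. For eIF genes the counts were 11 and 10 and for synthetases 12 and 3, with medians of 0.05 and 0.27. Since the scale of the signal is unstated, these ratios describe the lists. Across genes, which share their 2 libraries and are no independent replicates, the log2 signals gave a Pearson's r of 0.96 and a Spearman's rho of 0.93, against 0.95 and 0.96 over all 3694.

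**Figure D5:**
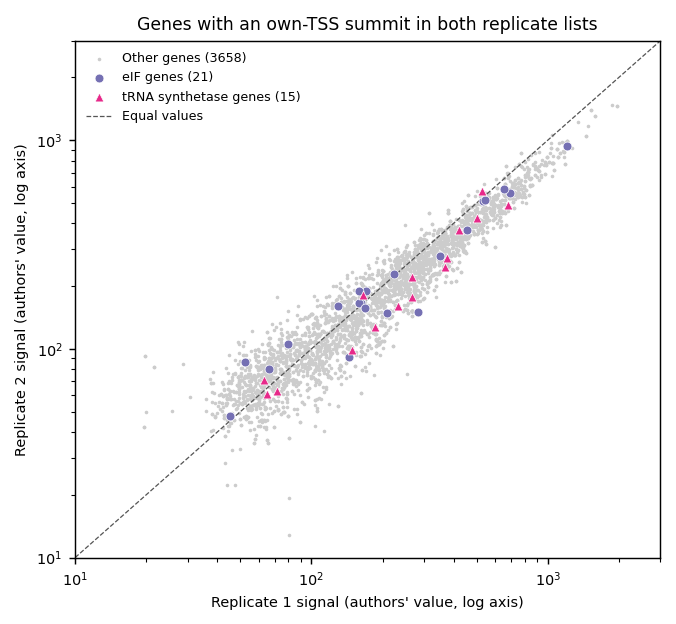
Signal in replicate 1 (horizontal log axis) and replicate 2 (vertical log axis) of each gene with an own-TSS summit in both lists, with 21 eIF genes as circles, 15 synthetase genes as triangles, 3658 other genes in grey and a dashed line of equal values. The eIF and synthetase genes lie inside the grey band, with eIF3c at its upper end.

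Set beside these were 29 other genes of translation, a list of elongation and release factors, their mitochondrial forms, regulators of initiation and the scaffold proteins of the synthetase complex. A main-list summit was at 24 of 29 (82.8%, Wilson 95% interval 65.5 to 92.4), against 59.5% of the 79 genes and 36.2% of all genes. The median signal at the 24 was 174. The strongest were Paip2 (1716), a repressor of the poly(A)-binding protein, mRF1 (1262), a mitochondrial release factor, and the elongation factor genes eEF2 (965) and eEF1gamma (944). Of the scaffold proteins AIMP3 had 432 and AIMP2 93.8, while AIMP1 had none. The kinases that phosphorylate eIF2alpha had 343 at Gcn2 and 86.4 at PEK, Thor, the inhibitor of eIF4E, had 102, and crc, the fly ATF4 gene, had 226. eEF1delta, eEFSec, mRRF1 and Pdcd4 also lacked a summit. eEF5, the fly symbol for the factor long called eIF5A, had 76.4. The mitochondrial factors of this list all had one except mRRF1, with mEFTs at 638, mEFG1 at 443 and mIF3 at 187, then mEFTu1 at 124, mIF2 at 98.4 and mEFTu2 at 85.9. How they compare with the mitochondrial synthetases was not tested.

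By arm, the genes with a summit numbered 6 of 9 on 2L, 10 of 17 on 2R, 10 of 21 on 3L, 14 of 20 on 3R, 1 of 1 on chromosome 4 and 6 of 11 on X. The share of all genes with a summit ran from 32.5% on chromosome 4 to 41.7% on X over these arms. Of the 7 genes with a single exon in every transcript, 4 had a summit, at eIF3f1, GlnRS, eIF6 and SerRS, and eIF3g2, alpha-PheRS and SerRS-m had none, while 375 of all 2131 single-exon genes (17.6%) had one. A second main-list summit within 500 bp of the own TSS was present at 10 of the 47 genes (21.3%), while 1264 of the 5062 (25%) had more than 1.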

How the data were processed

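Peak positions were taken as the authors deposited them, on dm6 per the file notes, as lists made from each replicate's alignments or from both, with control alignments. Per the file notes the thresholded lists had 1 further input of unstated content, and the aligner and caller were not given in the sources used here, nor were their filters. Signal and score of each peak are the authors' deposited values, and 8 further columns of per-sample values in the ranked lists were not used.

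Genes and TSSs came from the Ensembl annotation BDGP6.54, release 115, and sequence from the RefSeq genome of release 6. The strongest summit within 500 bp of an own TSS gave a gene's signal. Site searches used 50 bp on each side of the summit. Python 3.11.15, pandas 2.3.3, numpy 2.4.6 and statsmodels 0.14.6 (Wilson intervals, 95%) were used, and the assignment was tested on simulated peaks. There was 1 group, so no test between groups was possible.

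The genes and lists were chosen with earlier results of these data known. The text names the 6 strongest eIF and 6 strongest synthetase genes, those in 1 replicate's list alone, those without a summit, and paralogues, with sequences of strong genes that hold a site. Sequences without a site, and the sites of weaker genes, were chosen after their values were seen. Of 31 other translation genes listed, those under an annotated symbol numbered 29. Alternatives changed the list, the window, the assignment, the threshold and the site.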

Additional observations from a re-analysis of the deposited data

Results flagged for a closer look

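Both genes below had a signal in entries that the main counts do not use, the entries of the main ranked list at or above the lowest score of the main list that the main list lacks. At eIF4A, the helicase gene, such an entry had a signal of 1031. It had 620 in the ranked list of replicate 1 and 460 in that of replicate 2. At eIF4EHP, the gene of a cap-binding repressor, it had a signal of 60.8 in the main ranked list, and the entries of the ranked lists of replicate 1 and replicate 2 were 22.7 and 29.4. The authors made these lists with control alignments, which were not analysed here.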

How the results depend on the processing

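Of the 86 alternative values 69 stayed near the main one, that is within 1.5 times for a count, within the SD of the replicate lists' medians for a median, and within the Wilson interval for a share. These limits partly set the tally. The counts of cytosolic synthetases (16 of 20) and other translation genes (24 of 29) could not rise by 1.5 times. The eIF medians of the replicate lists, 168 and 166.3, lay so close that the limit for a median was narrow. The order of the shares of eIF and synthetase genes, 61.4% and 57.1% in the main list, turned in the conservative list (56.8% and 62.9%) and for any ranked entry (81.8% and 100%). Peaks above the median signal left 13 synthetase genes, 2 mitochondrial ones, 14 other translation genes and 3354 of all genes. Counting the nearest TSS alone left 13 synthetase genes and 9 cytosolic ones. Any entry of the main ranked list, an alternative chosen after seeing the data, gave 71 of the 79 genes, 35 synthetases, 15 mitochondrial ones and 9671 of all genes. The median signal of eIF genes was 320.8 with the summit nearest to the TSS, 319.6 within 250 bp and 252.8 without shared starts. That of synthetases was 374.8 within 1000 bp, 292.3 in the conservative list and 353.2 without shared starts. The core CGATA stood in 61.7% of summit windows. With 1 replicate left out, the counts were 36 to 44 for all 79 genes, 21 to 25 for eIF genes, 15 to 19 for synthetases, 12 to 15 for cytosolic ones, 3 to 4 for mitochondrial ones, 16 to 19 for other translation genes and 4252 to 4307 for all genes. The causes of these shifts were not tested. No paired analysis was possible because there was 1 group. The depth is unknown from the files, so a gene without a summit is one without a listed peak, not one without Scr-eGFP.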
